A study of Mus musculus with 32 samples.

Results

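Genes of fibroblast growth factor (FGF) and ERK signalling were examined in mouse embryonic stem cells (mESCs), pluripotent cells of the early embryo kept in culture. The set was a list of 43 gene symbols, comprising FGF ligands, FGF receptors, the adaptors and kinases that carry the signal, and genes that ERK induces, many of which feed back on the pathway. Of these, 42 were among the 24028 symbols measured and Hras1 was not, since the table lists that gene as Hras. RNA-seq was analysed for WT mESCs and for mESCs labelled Eed-/-, with 1 library per genotype. EED is the subunit of Polycomb repressive complex 2 (PRC2) that binds methylated H3K27. Both RNA-seq samples carry the strain label TT2, whereas the Eed-/- samples of the other assays of the study carry the label of another line. The cells of both genotypes were grown on gelatin in serum medium with leukemia inhibitory factor and received no other treatment in the labels. With 1 library each, genotype, culture, line and library preparation cannot be told apart, and no test was made.

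FGF ligands bind FGF receptors, a family of receptor tyrosine kinases, and the signal runs through GRB2, SOS and RAS to RAF, MEK and ERK. ERK then induces transcription factors of the ETV family and immediate early genes, together with inhibitors such as the dual-specificity phosphatases (DUSP) and the Sprouty and Spred proteins, which damp the pathway. In mESCs, FGF4 is the main ligand made by the cells themselves, and FGF/ERK signalling moves cells from naive pluripotency towards lineage commitment.

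RNA levels are given as FPKM, a fragment number corrected for the length of the transcript and the size of the library, which allows genes to be compared within a library. Differences are given as log2(FPKM + 1) after quantile normalization, labelled Eed-/- minus WT, a scale that understates the difference of genes with low values. Genes were used from a mean normalized FPKM of 0.1, and a difference of 2-fold on this scale, a log2 difference of 1, was taken as a call. The depth recovered from low FPKM values was about 7240000 fragments for WT and 6460000 for the library labelled Eed-/-, so that a 2 kb transcript with an FPKM of 2 stands on 26.4 and 23.5 fragments. The ratios of deposited FPKM below carry a 95% interval for counting error, computed from these depths and the longest annotated transcript of each gene. The interval leaves out the spread between cultures. These ratios are not scaled between libraries, so a ratio of 1 is not the middle of all genes. The median log2 difference of all genes was -0.09 for deposited FPKM, compared with 0.01 after quantile normalization. Single abundant genes moved further, such as Fgf4 (0.47 and 0.68) and Nras (-0.38 and -0.20). Ratios and log2 differences printed side by side are therefore on different scales.

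Eed itself had an FPKM of 63.0 in WT against 70.9 in the library labelled Eed-/-, a log2 difference of 0.40, so its RNA level did not mark that library as deficient. The study checked the loss of Eed through H3K27me3, by western blots and ChIP-seq, which were not analysed here. All 10 mESC markers had an FPKM of at least 25.5 in WT against 44.4 in the library labelled Eed-/-. Of these, Zfp42, a marker of naive pluripotency, was called higher, with 131.1 and 272.2, and 0 were called lower. Klf4, Nanog and Dppa5a had log2 differences of 0.99, 0.86 and 0.80, short of the call, and the median of the 10 was 0.14. The 7 primitive endoderm markers stayed below an FPKM of 2 in either library, with summed levels of 1.70 and 4.52. The 7 trophoblast markers summed to 53.8 in WT against 15.3 in the library labelled Eed-/-, mostly through Tfap2c (39.8 and 9.21) and Krt18 (12.1 and 4.69). These 2 were called lower. Short of a call, Krt7 (0.981 and 0.110) and Cdx2 (0.56 and 0.0788) were lower, whereas Hand1 (0 and 0.541) and Gata3 (0.365 and 0.664) were higher. Elf5 was listed at 0 in both. The 7 feeder fibroblast markers summed to 1.73 and 7.22, with Thy1 the highest in both (0.976 and 6.97). Col1a1 (0.460 and 0.137), Col1a2 (0.167 and 0.0312), Col3a1 and Postn were lower in the library labelled Eed-/-. Thy1 and Lum (0 and 0.0817) were higher, and Dcn was listed at 0 in both. The 5 early mesoderm markers summed to 2.18 and 4.37, with Eomes (0.478 and 1.93) and Evx1 (0.0513 and 1.32) called higher, 0 called lower, and Mesp1 and Mixl1 at log2 differences of -0.58 and -0.20. The 5 neural markers summed to 106.6 and 88.9, mostly Tubb3 (95.4 and 74.0), with 0 called in either direction and a median log2 difference of 0.04. The part of these lists in the differences described here was not tested, and in a bulk sample fewer cells of a type and less RNA per cell cannot be told apart.

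Genes of chromosome 8 had a median log2 difference of -0.39, those of chromosome 1 -0.30 and those of chromosome X 0.46, against 0.01 for all genes. Chromosome Y, with only 6 genes used, had a median of 1.77. Of the 42 genes, Dusp4 and Fgfr1 lie on chromosome 8, and none lies on chromosome 1, X or Y.

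Promoters were read from a RefSeq table of GRCm38.p6, as windows from 250 bases before to 50 bases after an annotated start. Fgf1, Spry4 and Egr1 were left out of this part, whether or not they have an entry. Of the 42 genes, 30 were kept, with 34 windows, so 30 is not the number of genes with an entry. The genes without an entry include Dusp4 and Etv4. The median GC content of the windows was 62.7%, compared with 52.7% for 32851 promoters of all genes, and their median number of CpGs was 25, compared with 7. The promoters of Dusp6, Fgf3, Fgf10 and Fgf4 are shown because these genes carry much of what follows: Dusp6 was among the 3 genes called lower, Fgf3 and Fgf10 were the genes called higher, and Fgf4 was the most abundant ligand. Capitals mark the CpGs, the sites of DNA methylation. The windows are chr10:99262981-99263280 for Dusp6, chr7:144838362-144838661 for Fgf3, chr13:118714449-118714748 for Fgf10 and chr7:144861136-144861435 for Fgf4, all on the plus strand.
Dusp6: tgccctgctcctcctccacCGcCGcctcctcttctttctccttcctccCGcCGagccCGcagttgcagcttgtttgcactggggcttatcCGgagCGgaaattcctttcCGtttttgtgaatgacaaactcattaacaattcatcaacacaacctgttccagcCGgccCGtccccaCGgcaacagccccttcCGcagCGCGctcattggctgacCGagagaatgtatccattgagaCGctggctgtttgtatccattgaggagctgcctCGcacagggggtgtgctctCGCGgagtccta
Fgf3: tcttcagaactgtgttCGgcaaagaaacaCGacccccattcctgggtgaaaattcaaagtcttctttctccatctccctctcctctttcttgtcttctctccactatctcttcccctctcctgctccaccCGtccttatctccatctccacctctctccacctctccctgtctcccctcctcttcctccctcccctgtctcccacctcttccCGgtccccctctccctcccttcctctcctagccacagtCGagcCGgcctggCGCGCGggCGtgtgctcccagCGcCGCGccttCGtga
Fgf10: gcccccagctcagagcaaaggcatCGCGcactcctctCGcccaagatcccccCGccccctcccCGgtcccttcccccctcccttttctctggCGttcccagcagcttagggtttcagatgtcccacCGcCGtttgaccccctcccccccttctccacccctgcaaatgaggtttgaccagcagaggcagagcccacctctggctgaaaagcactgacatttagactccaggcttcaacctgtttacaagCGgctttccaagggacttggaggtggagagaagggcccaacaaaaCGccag
Fgf4: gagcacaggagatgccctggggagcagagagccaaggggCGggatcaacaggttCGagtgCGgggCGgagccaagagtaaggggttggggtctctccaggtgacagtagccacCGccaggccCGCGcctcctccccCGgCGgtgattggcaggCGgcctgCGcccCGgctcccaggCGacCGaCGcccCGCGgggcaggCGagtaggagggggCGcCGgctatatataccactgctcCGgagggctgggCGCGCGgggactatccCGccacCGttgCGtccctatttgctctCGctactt
The windows hold 19 CpGs for Dusp6, 14 for Fgf3, 10 for Fgf10 and 28 for Fgf4. Both strands of all windows were searched for 5 short motifs, none of which is part of another. The GC box GGGCGG was present in 23 of the 34 windows, 67.6%, compared with 35.7% of all promoters. The ETS motif CCGGAAG and the AP-1 motif TGANTCA were in 0 of the 34 windows, compared with 8.86% and 7.81% of all promoters. The SOX motif ACAATG was in 1 window, that of Grb2, and TATAAA was in 4 windows, those of Etv1, Fgf5, Fos and Grb2, compared with 12.6% and 13.6% of all promoters. All promoters were not matched to the 34 windows in GC content, which had medians of 52.7% and 62.7%, so the percentages do not compare like sequences. These matches describe letters in the windows only, and the promoters of Fgf1, Spry4 and Egr1 were not among the 34.

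Of the 42 genes, 40 passed the filter on low values. Fgf5 and Fgf9 did not, and Fgf8 and Fosl1 passed although each was listed at 0 in 1 library. Fgf3 and Fgf10 were called higher in the library labelled Eed-/-, 2 of 40 or 5%, whereas 3.8% of all 14835 genes used were. Dusp4, Dusp6 and Etv4 were called lower, 3 of 40 or 7.5%, whereas 3.98% of all genes were. The shares of the set are near those of all genes, so the counts alone say nothing particular about it. The calls within each group below are fewer still and are to be read beside the same shares of all genes. The median log2 difference was -0.13 for the 40 genes and 0.01 for all genes, and 17 of the 40 lay above 0 and 23 below. An FPKM of 2 or more was reached by 26 of the 42 genes in each library.

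**Figure D1:**
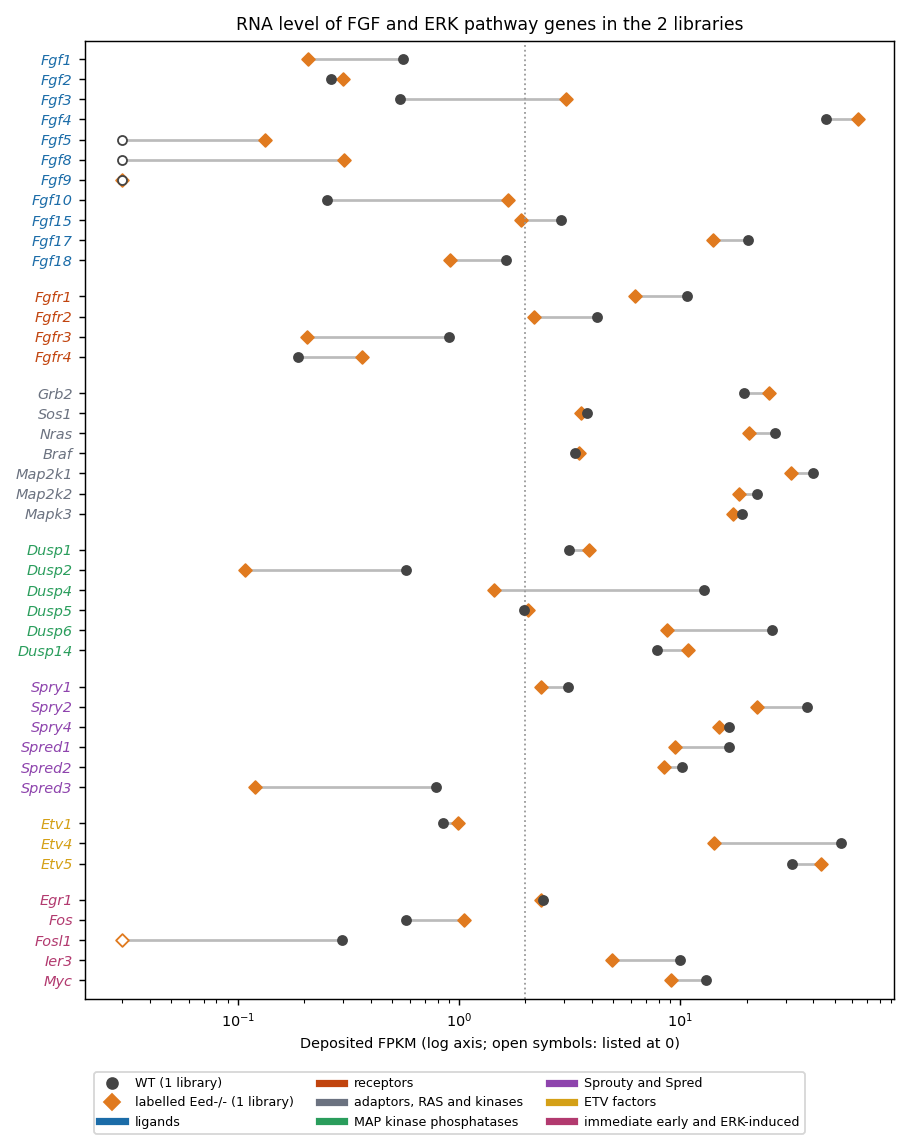
Deposited FPKM (log axis) of the 42 genes in WT (circles) and in the library labelled Eed-/- (diamonds), 1 library each, with gene names coloured by group and a dotted line at an FPKM of 2. Open symbols mark genes listed at 0. The longest gaps among well-expressed genes are those of Dusp4 (12.9 and 1.45), Etv4 (53.7 and 14.2) and Dusp6 (26.0 and 8.70).

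The ligands had 2 of 9 genes called higher and 0 called lower, with a median log2 difference of 0.04. Fgf4, which mESCs secrete and respond to, was the highest of them, with an FPKM of 45.7 in WT against 63.6 in the library labelled Eed-/-. It stands on about 943 and 1170 fragments of a single annotated transcript, and the ratio of the libraries was 1.39 (95% counting interval 1.28 to 1.52). Its log2 difference of 0.68 was short of the call. Fgf17, of the same subfamily as Fgf8, came next with 20.3 in WT against 14.1 in the library labelled Eed-/-, a ratio of 0.692 (0.555 to 0.860) and a log2 difference of -0.35.

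Fgf3 and Fgf10 were low in WT. Fgf3, known for its role in inner ear and tail development, had an FPKM of 0.543 in WT against 3.05 in the library labelled Eed-/-. The log2 difference was 1.45 and the ratio 5.62, with a counting interval of 2.73 to 14.5, or 2.11 to 18.7 when the median annotated transcript length was used. Fgf10, the mesenchymal ligand needed for limb and lung growth, had 0.252 in WT against 1.66 in the library labelled Eed-/-, a log2 difference of 1.12. It lies on chromosome 13 of mm9, from 119458598 to 119580922. Its ratio was 6.58 with an interval of 2.99 to 17.7 for the longest transcript, but 0.627 to 265 for the median transcript length, so the fragment numbers behind this call depend on the transcript model. Neither reached the level of Fgf17 in either library.

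Fgf3, Fgf4 and Fgf15 lie next to each other on chromosome 7 of mm9, all on the plus strand. Fgf3 spans 152023988 to 152030341, Fgf4 spans 152047291 to 152051148 and Fgf15 spans 152082437 to 152086858, with gaps of 16949 bp and 31288 bp. The neighbours did not differ alike between the libraries. Fgf15, the mouse counterpart of the endocrine ligand FGF19, had an FPKM of 2.89 in WT against 1.90 in the library labelled Eed-/-, a ratio of 0.660 whose counting interval of 0.360 to 1.18 holds equality. Fgf3 and Fgf4 both had an interval above 1.

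The remaining ligands stayed low. Fgf18, a ligand of bone and lung development, had 1.63 in WT against 0.912 in the library labelled Eed-/-, a log2 difference of -0.42. Fgf1 had 0.557 and 0.208, Fgf2 had 0.265 and 0.30, and Fgf8 was listed at 0 in WT against at 0.304 in the library labelled Eed-/-. Their log2 differences were -0.36, 0.04 and 0.39. Fgf5, a marker of the primed epiblast, was listed at 0 in WT against at 0.133 in the library labelled Eed-/-, and Fgf9 was listed at 0 in both. The 7 markers of that stage, Fgf5 among them, summed to 69.7 and 81.3, mostly Dnmt3b (58.5 and 54.0, a log2 difference of 0.12). Of these, 2 were called higher, Otx2 with 1.79 and 9.90 and Foxd3 with 5.67 and 13.6, and 0 lower. Pou3f1 lay in the other direction, with 3.08 and 1.92 and a log2 difference of -0.41, while Lef1 and Sox3 had log2 differences of 0.86 and 0.055.

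The summed FPKM of the ligands was 72.2 in WT against 86.1 in the library labelled Eed-/-. Fgf4 made up 63.4% of it in WT against 73.8% in the library labelled Eed-/-, while Fgf17 made up 28.2% and 16.4%. The share of Fgf3 was 0.752% in WT against 3.54% in the library labelled Eed-/-, and that of Fgf10 was 0.350% against 1.93%. These shares are of deposited FPKM and do not change when a library is multiplied by a single factor.

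The receptors had 0 of 4 genes called in either direction, with a median log2 difference of -0.60. Fgfr1, the main receptor of mESCs, had an FPKM of 10.8 in WT against 6.27 in the library labelled Eed-/-, a ratio of 0.581 (0.488 to 0.695). Fgfr2, which marks the primitive endoderm lineage, had 4.22 and 2.18, a ratio of 0.517 (0.374 to 0.708). Fgfr3 was low, with 0.901 and 0.205, and its ratio of 0.227 had an interval of 0.0646 to 0.570. The log2 differences were -0.56, -0.63 and -0.65. Fgfr4 had 0.187 and 0.366, a log2 difference of 0.20 on a few fragments.

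The ratios of Fgfr1, Fgfr2 and Fgfr3 were unequal, but their counting intervals overlap. The near-equal log2 differences of these 3 receptors come with the pseudocount of 1, since with one of 0.1 they were -0.62, -0.82 and -1.70. The summed FPKM of the family was 16.1 in WT against 9.02 in the library labelled Eed-/-, a ratio of 0.561. Fgfr1 held 67.0% of the sum in WT against 69.5% in the library labelled Eed-/-, and Fgfr2 held 26.2% against 24.2%. Of the low receptors, Fgfr3 held 5.60% against 2.27% and Fgfr4 held 1.16% against 4.05%. In the library labelled Eed-/- these stand on about 5.4 and 7.4 fragments, so their order there is within counting error. Fgfr1 lies on chromosome 8, and relative to the median of that chromosome its log2 difference was -0.17. The part of the chromosome in this result was not tested. In the annotation used, the Fgfr2 model spans many other genes, from 137305965 to 140315033 on chromosome 7 of mm9, so its transcript length is less sure than that of the others.

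The adaptors, RAS proteins and kinases were all expressed, and 0 of the 7 found genes were called in either direction. Their median log2 difference was 0.01. Grb2, the adaptor that links receptors to SOS, had an FPKM of 19.5 in WT against 25.2 in the library labelled Eed-/-, a log2 difference of 0.54 and a ratio of 1.30 (1.12 to 1.5). Nras, a RAS GTPase, had 26.9 and 20.4, a log2 difference of -0.20 and a ratio of 0.761 (0.683 to 0.849).

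The others lay closer to 0. The exchange factor Sos1 had 3.81 in WT against 3.57 in the library labelled Eed-/-, and the kinase Braf had 3.35 and 3.49. The MEK kinases Map2k1 and Map2k2 had 40.0 and 31.7, and 22.2 and 18.4, with Map2k1 holding 64.3% of their sum in WT against 63.2% in the library labelled Eed-/-. Mapk3, which encodes ERK1, had 19.0 and 17.3. The log2 differences of these 5 genes were between -0.14 and 0.14, and the signs of Sos1 and Mapk3 turned with the scaling. Hras, outside the counts because its symbol differs from the listed one, had 23.3 and 25.4, a log2 difference of 0.30.

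**Figure D2:**
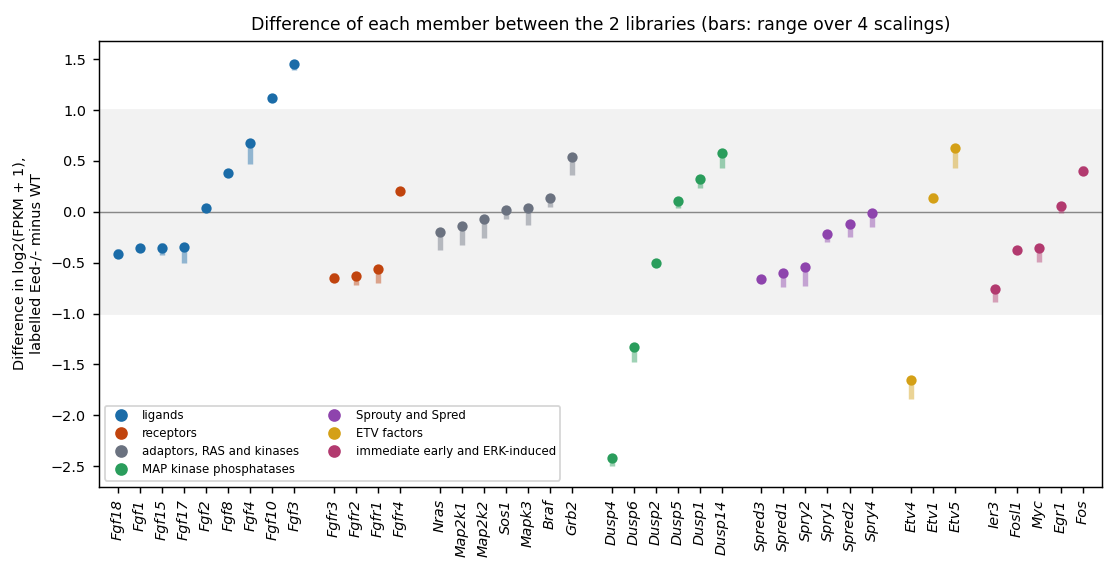
Difference in log2(FPKM + 1) between the 2 libraries, labelled Eed-/- minus WT, for the 40 genes used, ordered within each group. Points are the quantile-normalized differences, vertical bars the range over 4 scalings, and the grey band the differences under 2-fold. Dusp4 (-2.42), Etv4 (-1.65) and Dusp6 (-1.32) lie below the band and Fgf3 (1.45) and Fgf10 (1.12) above it.

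Among the MAP kinase phosphatases, which remove phosphate from ERK and related kinases, 2 of 6 were called lower and 0 higher. Dusp4, a nuclear phosphatase, had an FPKM of 12.9 in WT against 1.45 in the library labelled Eed-/-. This corresponds to about 238 and 23.9 fragments of its annotated transcript, a log2 difference of -2.42 and a ratio of 0.113 (0.071 to 0.172). It was the lowest of the 40 differences and lay at the 0.283 percentile of all genes used. Dusp4 is on chromosome 8 of mm9, from 35870351 to 35882948, and relative to the median of that chromosome its log2 difference was -2.04, still past the call.

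Dusp6, the cytoplasmic phosphatase specific for ERK and a common readout of FGF signalling, had 26.0 in WT against 8.70 in the library labelled Eed-/-. The log2 difference was -1.32, the ratio 0.335 (0.277 to 0.403) and the percentile 1.79. It lies on chromosome 10 of mm9, from 98725865 to 98730122, where the median log2 difference was 0.02. The 4 other phosphatases did not all lie in the direction of Dusp4 and Dusp6. Dusp14 had 7.86 and 10.9, a ratio of 1.39 (1.02 to 1.89), and Dusp1, an immediate early phosphatase, had 3.13 and 3.87. Dusp5, a nuclear ERK phosphatase, had 1.98 and 2.06, and Dusp2, also lower, had 0.576 and 0.108, a ratio of 0.187 on a few fragments. Their log2 differences were 0.58, 0.33, 0.10 and -0.50, and the counting intervals of Dusp1, Dusp5 and Dusp2 hold equality.

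The 6 phosphatase genes of the set had another make-up in each library. Of a summed FPKM of 52.4 in WT, Dusp6 held 49.6%, Dusp4 24.5% and Dusp14 15.0%. Of a sum of 27.1 in the library labelled Eed-/-, Dusp14 held 40.3%, Dusp6 32.1% and Dusp4 5.34%. These sums leave out Dusp9, an ERK phosphatase gene on chromosome X that is not in the set and was the most abundant of the phosphatases read, with 39.7 in WT against 58.1 in the library labelled Eed-/-. Its log2 difference was 0.75 and the median of chromosome X was 0.46. With Dusp3, Dusp7, Dusp8, Dusp9 and Dusp10 added, the sum over 11 phosphatase genes was 99.7 against 92.5, a ratio of 0.927 in place of 0.517 for the 6. Of that sum, Dusp9 held 39.8% against 62.8%, Dusp6 held 26.1% against 9.41% and Dusp4 held 12.9% against 1.57%. These sums are of deposited FPKM, so their ratios depend on the scaling between the libraries. After quantile normalization the sum over the 11 genes was higher, not lower, in the library labelled Eed-/-.

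**Figure D3:**
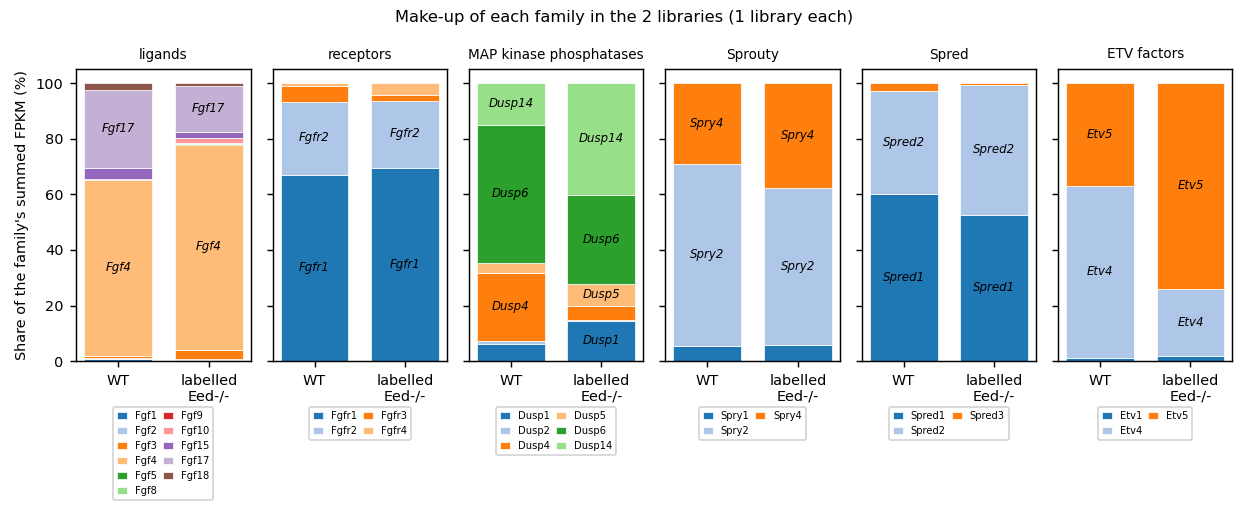
Share of each gene in the summed deposited FPKM of its family (%) for WT (left bars) and the library labelled Eed-/- (right bars), 1 library each. Etv4 holds 62.0% in WT against 24.3% in the library labelled Eed-/- and Etv5 holds 37.0% against 74.1%, while among the 6 phosphatases Dusp14 holds 15.0% against 40.3% and Dusp4 holds 24.5% against 5.34%.

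The Sprouty and Spred genes, inhibitors that act between the receptors and RAF, had 0 of 6 called in either direction. All 6 log2 differences were below 0, with a median of -0.38, although that of Spry4 was close to 0 and turned positive with median-ratio scaling. Spry2 had an FPKM of 37.4 in WT against 22.2 in the library labelled Eed-/-, a log2 difference of -0.54 and a ratio of 0.593 (0.510 to 0.688). Spred1 had 16.6 and 9.53, a log2 difference of -0.61 and a ratio of 0.575 (0.504 to 0.653). Spred3 was low, with 0.786 and 0.120, and had a log2 difference of -0.66 and a ratio of 0.153 (0.0293 to 0.509).

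Spry4, which like Spry2 is induced by ERK, had 16.6 in WT against 14.9 in the library labelled Eed-/-, a log2 difference of -0.01 and a ratio of 0.897 (0.788 to 1.02). Spry1 had 3.11 and 2.35, and Spred2 had 10.2 and 8.46, with log2 differences of -0.22 and -0.11. The feedback genes differed unequally between the libraries, since the FPKM of Dusp6 was 1.56 times that of Spry4 in WT against 0.583 times in the library labelled Eed-/-.

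Of the ETV factors, ETS-family transcription factors that ERK signalling induces, 1 of 3 was called lower and 0 higher. Etv4 had an FPKM of 53.7 in WT, the highest of all 42 genes, and 14.2 in the library labelled Eed-/-. Its log2 difference was -1.65, its ratio 0.265 (0.227 to 0.310) and its percentile 0.789. It lies on chromosome 11 of mm9, from 101631056 to 101646685. Etv5, of the same subfamily, had 32.0 and 43.4, a log2 difference of 0.63 in the other direction and a ratio of 1.35 (1.24 to 1.48). Etv1, the third member, was low, with 0.843 and 0.987 and a log2 difference of 0.14.

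The order of Etv4 and Etv5 was thus reversed between the libraries. The FPKM of Etv4 was 1.68 times that of Etv5 in WT against 0.328 times in the library labelled Eed-/-. Etv5 held 37.0% of the family's sum in WT against 74.1% in the library labelled Eed-/-. This comparison is within a library and needs no scaling between libraries.

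The immediate early and other ERK-induced genes had 0 of 5 called in either direction, with a median log2 difference of -0.36. Ier3, an early response gene, came nearest to a call, with 9.97 in WT against 4.93 in the library labelled Eed-/-, a log2 difference of -0.76 and a ratio of 0.494 (0.306 to 0.758). Myc, a regulator of growth and of self-renewal in mESCs, had 13.1 and 9.08, a log2 difference of -0.36 and a ratio of 0.691 (0.552 to 0.871). Egr1, an immediate early zinc finger factor that ERK induces, had 2.39 and 2.36, a ratio of 0.986 (0.631 to 1.48). The AP-1 genes were low, since Fos had 0.578 and 1.05 and Fosl1 was listed at 0.296 in WT against at 0 in the library labelled Eed-/-.

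Over the 20 phosphatase, Sprouty, Spred, ETV and immediate early genes, 0 were called higher and 3 lower. The shares of all genes used were 3.8% and 3.98%, and 3 calls are too few to compare with them. The median log2 difference of the 20 genes was -0.29, and their summed FPKM was 250 in WT against 160.7 in the library labelled Eed-/-. Among the 11 of these with an FPKM of at least 5 in WT, 9 log2 differences lay below 0, with a median of -0.54, and the 2 above 0 were Dusp14 and Etv5. A choice by the WT level favours genes that are lower in the other library, so this count is a description. The 3 calls fell in the phosphatase and ETV families, and each of these also held a gene on the other side of 0.

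**Figure D4:**
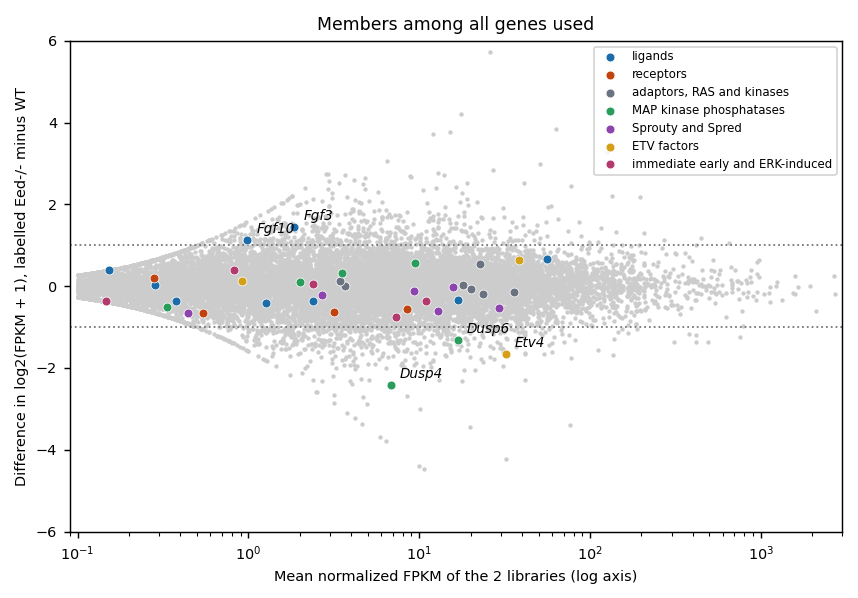
Difference in log2(FPKM + 1), labelled Eed-/- minus WT, against the mean normalized FPKM of the 2 libraries (log axis) for the genes used (grey), with the 40 genes of the set coloured by group and dotted lines at 2-fold. Of 14835 genes, 66 lie outside the axes. The 3 genes called lower are well expressed, while the 2 called higher have a mean under 2.

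Since the calls depend on a threshold, the differences were also read against counting error. Of 38 genes with a value above 0 in both libraries, 5 had an interval above equality under 3 scalings and both transcript lengths, namely Fgf3, Fgf4, Grb2, Dusp14 and Etv5. This is 13.2% of the 38, compared with 13.6% of 13644 genes. Another 13 had an interval below equality, namely Fgf17, Fgfr1, Fgfr2, Fgfr3, Nras, Dusp4, Dusp6, Spry2, Spred1, Spred3, Etv4, Ier3 and Myc. They are 34.2% of the 38, compared with 17.5% of all genes. Among the 19 genes of the set whose normalized FPKM averaged 5 or more, 4 lay above and 10 below, or 21.1% and 52.6%, compared with 16.1% and 24.9% of 6902 genes at that level. Fragments are not cultures, and the intervals do not say whether another pair of cultures would differ alike.

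DNA methylation valleys (DMVs) are long unmethylated regions that the study followed in Eed-/- cells, and 14 of the 42 genes are in its list of DMV genes of mESCs. These are Fgf4, Fgf9, Dusp4, Dusp6, Spry2, Spry4, Spred1, Spred3, Etv1, Etv4, Etv5, Egr1, Fos and Myc. Of the 13 that passed the filter, 0 were called higher and 3 lower, with a median log2 difference of -0.36. Of the 27 used genes that are not in the list, 2 were called higher and 0 lower, with a median of -0.12. Over all genes used, 10.7% are in the list, of which 4.22% were called higher and 4.79% lower, compared with 3.75% and 3.88% of the genes not in it. The medians were 0.01 for both. The 3 calls lower and the 2 calls higher are few, and the difference between the lists was not tested.

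A further 52 genes of the pathway, among them other FGF ligands, docking proteins, RAF and ERK kinases, ETS factors and heparan sulphate enzymes, were read for comparison. All 52 were in the table and 41 passed the filter. Of these, 1 was called higher and 0 lower, whereas 3.8% and 3.98% of all genes used were. The median log2 difference of the 41 was -0.04. The gene called higher was Fgf13, an intracellular FGF homologue on chromosome X, with 0.376 in WT against 1.87 in the library labelled Eed-/- and a log2 difference of 1.10, whereas the median of chromosome X was 0.46.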

How the data were processed

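RNA-seq of WT and Eed-/- mESCs was analysed, with 1 library per genotype. According to the study's methods, the authors made strand-specific libraries after removing ribosomal RNA, aligned the reads to mm9 (TopHat) and estimated transcript levels (Cufflinks). The submitters' processing notes name TopHat2 2.0.11 and Cufflinks 2.2.1. The authors deposited these levels as FPKM, 1 value per line and gene symbol, and no count table was used. Whether Cufflinks was run with the strand setting is not given in the sources used here. Antisense genes overlap 11 of the 42 genes. The other assays were not analysed here.

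The 43 symbols and all lists were chosen with earlier results of these data known. All members were named by group, and of 52 other pathway genes those past 2-fold. Values of symbols listed more than once were summed, and the libraries were quantile-normalized. Positions and transcript lengths came from GENCODE vM1 (NCBIM37, the same assembly as mm9), and DMV genes from the study's list. Depth was recovered from the step size of low FPKM in 5431 genes with a single transcript of 1000 bp or more, less 180 bp. Of 915 (WT) and 1027 (labelled Eed-/-) low values, 79.0% and 79.2% were within 0.1 of a whole number of fragments. Ratio intervals are exact conditional binomial intervals, and where a gene has several transcripts its fragment numbers are approximate. No member had a near-identical copy (minimap2 2.31, at least 80% of the sequence at 95% identity). Computations were tested on simulated data. Other scalings, pseudocounts, filters and thresholds and a centring on each chromosome were tried. The tools were scipy 1.17.1, pandas 2.3.3, numpy 2.4.6 and matplotlib 3.10.9 under Python 3.11.15.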

Additional observations from a re-analysis of the deposited data

How the results depend on the processing

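No paired analysis was possible because each genotype has 1 RNA-seq library. The 2 genes called higher and the 3 called lower were past 2-fold under all 4 scalings (quantile normalization, FPKM as deposited, median-ratio scaling, and quantile normalization without small non-coding RNAs). The deposited FPKM had a median difference of -0.09 over all genes. With pseudocounts of 0.1 and of 0.01, 3 genes (7.5%) were called higher and 8 (20%) lower, compared with 11.4% and 12% of all genes at 0.1 and 12.9% and 13.4% at 0.01. A mean normalized FPKM of at least 1 left 1 of 29 genes (3.45%) called higher, Fgf3, compared with 4.76% of all genes. It left 3 of 29 (10.3%) called lower, compared with 5.05% of all genes. A 1.5-fold threshold gave 4 higher, adding Fgf4 and Etv5, and 8 lower, adding Ier3, Spred3, Fgfr3, Fgfr2 and Spred1 (10% and 20%, compared with 12.3% and 12.4% of all genes). A 3-fold threshold gave 0 higher and 2 lower, Dusp4 and Etv4 (5%), compared with 1.02% and 0.923% of all genes. Counts relative to the median of each gene's chromosome were 2 and 3, and without the genes on chromosome 8, and so without Dusp4, they were 2 and 2. The median difference of the genes was -0.28 with deposited FPKM. The sign was the same under the 4 scalings for 36 of 40 genes and turned for Sos1, Mapk3, Spry4 and Egr1. Depth limits genes under an FPKM of 2, and the spread between cultures is unknown.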
